A study of Homo sapiens with 16 samples.

Results

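Ribosome footprints of unstressed senescent WI-38 cells were compared with those of unstressed young WI-38 cells. The comparison used 4 of the 16 libraries of the series, namely the footprint libraries that the labels call control, 2 of young cells (young 1 and young 2) and 2 of senescent cells (senescent 1 and senescent 2). WI-38 is a line of human lung fibroblasts that divides for a limited number of passages, and this line stands here for all fibroblasts. The young groups were cells of passage 24, and the senescent groups cells of passage 36. In every group, the cells were held without serum for 24 h and then kept for 24 h in medium with 10% serum. Plates of 15 cm had been seeded with 1300000 young or 1500000 senescent cells, so the plating number cannot be told apart from the state. The other 12 libraries were RNA-seq of the same states and both assays after a heat shock of 2 h at 44 °C (printed 440C by the submitters). Their levels are given only beside the resting footprints. The 4 heat-shocked footprint libraries also entered the filter, the scaling and the spread behind the SE and p values at rest. The labels do not say whether replicates came from separate cultures, so p values measure only the spread between these libraries.

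A ribosome covers a short stretch of the mRNA that it translates, and this stretch is protected from RNase. In Ribo-seq the protected stretches are sequenced and counted per gene, so a count follows both the amount of an mRNA and the number of ribosomes on it. Replicative senescence is a lasting exit from the cell cycle, known in fibroblasts for induction of CDK inhibitors, loss of lamin B1 and of HMGB proteins, and secretion of proteases and growth factors. A cell that does not copy its DNA needs no new core histones, whose mRNAs are made and translated mainly in S phase.

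The 4 libraries held 7790636 and 9104077 counts in young cells and 4581141 and 5401682 in senescent cells. Levels are given as counts per 1000000 of the library scaled by TMM (CPM). Differences are senescent minus young on the log2 scale, ± an approximate SE from the test (n = 2 libraries per group). Young 1 and young 2 were nearly alike, with a Pearson r of 0.993 across genes and a chi-square of 1.73 per degree of freedom between their counts, against 17.2 for the senescent pair. Their counts differed by more than sampling noise in sum. The chi-square of the median gene was 0.667, against 4.41 for the senescent pair. Young 1 and young 2 were kept as 2 libraries. They may still be technical replicates of 1 culture, in which case the SE and p values below are too small, and the test was also run with both counted as 1 sample. Senescent 1 stood apart, with r = 0.92 to young 1 and 0.934 to senescent 2, while senescent 2 had r = 0.969 to young 1. For that reason the results below are given library by library. Fibroblast identity showed in all 4 libraries: all 13 markers of the list were measured, and COL1A1, the main chain of type I collagen, gave 8781 and 8503 CPM in young and 8134 and 9671 CPM in senescent cells.

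At rest, no gene passed an adjusted p of 0.05 in edgeR's quasi-likelihood test of 11288 genes (0% called), so no single gene is called higher or lower here. At an unadjusted p under 0.05 there were 885 genes (7.84%), 500 with a difference above 0 (4.43% of genes tested) and 385 below 0 (3.41%). The count of 885 became 282 with the young libraries counted as 1 sample, 307 without young 1, 295 without young 2, 504 without senescent 1 and 1869 without senescent 2. Fitted on only the 4 resting libraries, without the heat-shocked ones, edgeR called 16 genes, 13 higher and 3 lower. In that fit 1661 genes had an unadjusted p under 0.05. DESeq2 called 116 genes, 81 higher and 35 lower, and limma on log2(TPM + 1) called 0. In 2797 genes (24.8%) both senescent libraries lay above both young libraries, and in 3015 (26.7%) both lay below. In data simulated for this comparison, edgeR called 65 of 100 genes changed 4-fold and 9 of 100 changed 2-fold. Whether these shares hold for the real libraries, with their spread between replicates, was not tested. In the real libraries CCND2 (3.12) and GRIK2 (−2.69) differed by more than 4-fold and were not called. The lack of calls at rest does not show a lack of change, at 2-fold or at 4-fold. The gene lists below are described by counts and medians beside the same values over all genes, of which 49.1% had a difference above 0 and whose median difference was −0.01.

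**Figure D1:**
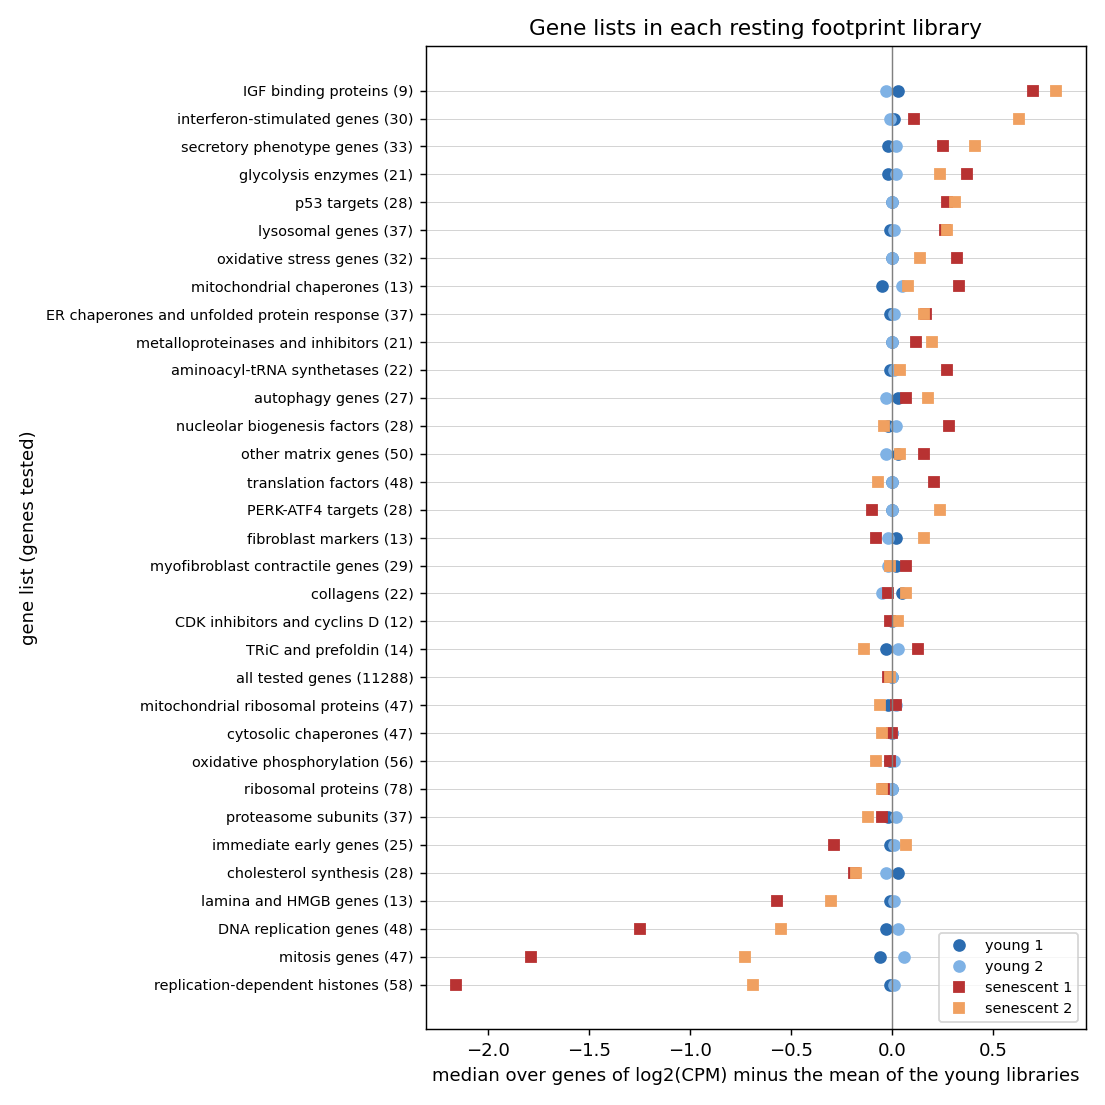
Median log2 level of each gene list in the 4 resting footprint libraries (x axis, log2 units, relative to the mean of the young libraries), one row per list with the number of genes tested. Circles are the young and squares the senescent libraries. Histones, mitosis genes and DNA replication genes lie lowest in senescent 1 (−2.16, −1.79 and −1.25) and less low in senescent 2 (−0.69, −0.73 and −0.55).

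Replication-dependent histones had, with mitosis genes, the lowest median of all lists, −1.22. Their mRNAs carry no poly(A) tail. They end in a short stem-loop, which the stem-loop binding protein holds for processing and translation in S phase. To show the element, 1 stem-loop is printed for each core histone class, from GENCODE 29 transcripts (GRCh38). The capitals mark the stem-loop, found by the consensus of the histone stem-loop (16 letters, any base at 2 of them) on the transcript strand after the stop codon.
HIST1H2AE, chr6:26217412-26217437, plus strand: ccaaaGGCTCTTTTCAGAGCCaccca
HIST1H2BL, chr6:27807479-27807504, minus strand: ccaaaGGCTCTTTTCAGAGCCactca
HIST1H3H, chr6:27810511-27810536, plus strand: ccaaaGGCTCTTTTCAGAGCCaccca
HIST1H4E, chr6:26204996-26205021, plus strand: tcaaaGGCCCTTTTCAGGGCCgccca
The consensus fixes the loop letters, so their sameness in all 4 follows from the search. At the 2 free positions, both in the stem, the H4 element has other bases than the H2A, H2B and H3 elements. The element lies 49 bases after the stop codon in HIST1H2AE, 26 in HIST1H2BL, 31 in HIST1H3H and 44 in HIST1H4E. A match to this consensus occurs in 18 of the 58 histones of the list, and in 23 of the 11080 tested genes that have a transcript in this annotation (0.208%). The other 5 are histones too, HIST3H2BB, HIST2H2BF, HIST2H3C, HIST2H3A and HIST2H2AA4, and all 5 had a difference below 0. The absence of a match says only that these letters are not in the annotated transcript.

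Summed over the 58 genes, histone footprints were 8482 and 8608 CPM in young cells, 2115 CPM in senescent 1 and 5461 CPM in senescent 2. Both senescent libraries were thus below both young libraries, and they were far from each other. All 58 genes had a difference below 0, with a median of −1.22, and in 54 both senescent libraries lay below both young (26.7% of all tested genes). None passed the test, and 5 had an unadjusted p under 0.05 in that direction (3.41% of all tested genes). Without senescent 1 the median was −0.69, and without senescent 2 it was −2.17.

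In every class senescent 1 was the lowest library and senescent 2 the next lowest. H3 genes, the core histone with many regulatory marks, gave 1700 and 1704 CPM in young cells, 275 CPM in senescent 1 and 939.8 CPM in senescent 2. H4 genes gave 2292, 2402, 538.2 and 1425 CPM in the same order. Linker histones H1, which bind between nucleosomes, gave 1019, 1076, 216.7 and 641.2 CPM. H2A genes gave 1229, 1238, 359 and 921.2 CPM, and H2B genes 2242, 2187, 726.4 and 1534 CPM. Against the mean of the young libraries the class sums differed by −1.61 (H2B) to −2.63 (H3) in senescent 1 and by −0.42 (H2A) to −0.86 (H3) in senescent 2. Histone genes are near-identical copies whose reads can be split between them, so class sums are firmer than single genes. HIST1H1C, a linker histone and the most abundant member, had 361 and 372.9 CPM in young cells and 110.8 and 254.4 CPM in senescent cells (difference −1.01 ± 0.58, adjusted p = 0.729). HIST1H2BK came nearest to 0, with 284.1 and 267 CPM against 163.4 and 278.2 CPM (−0.32 ± 0.37), and its groups overlapped.

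Within the heat-shocked libraries the histone sum followed the replicate number rather than the state. It was 2073 and 5701 CPM in young heat-shocked cells (replicates 1 and 2), and 1594 and 6575 CPM in senescent heat-shocked cells. Replicate 1 was low and replicate 2 high in both states, as among the resting senescent libraries, while the resting young libraries did not differ in this way. The sources used here do not say what a replicate number stands for, and its part in the histone difference at rest was not tested.

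**Figure D2:**
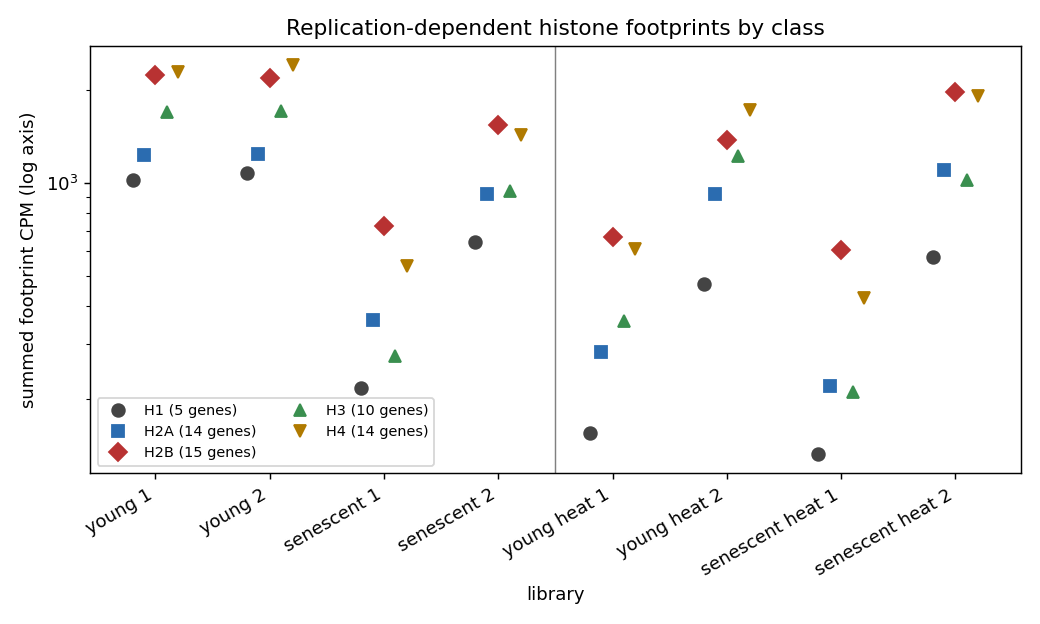
Summed footprints of replication-dependent histones by class (y axis, CPM, log scale) in the 8 footprint libraries (x axis), with resting libraries left of the line and heat-shocked libraries right of it. Each point is 1 library. H3 lies at 1700 and 1704 CPM in the young libraries, 275 CPM in senescent 1 and 939.8 CPM in senescent 2.

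Genes of DNA replication were, with 1 exception, lower in senescent cells too. This list holds the MCM helicase, which opens the DNA, the polymerases and the enzymes that supply deoxynucleotides. Of 48 measured genes 47 had a difference below 0, and the median was −0.87. In 44 both senescent libraries lay below both young (26.7% of all tested genes). None passed, and 14 had an unadjusted p under 0.05 in this direction (3.41% of all tested genes). The clamp PCNA gave 152 and 158.1 CPM in young cells against 96.61 and 121.8 CPM in senescent cells (−0.51 ± 0.27, adjusted p = 0.707). RRM2, the ribonucleotide reductase subunit made in S phase, gave 160.2 and 171.2 CPM against 52.05 and 100.5 CPM (−1.12 ± 0.54). RRM1, its partner, gave 147.9 and 154.7 CPM against 82.24 and 94.42 CPM (−0.78 ± 0.26). In each of these 3 genes senescent 1 was the lowest library and the groups did not overlap. CCNE1, cyclin E1, which acts at entry into S phase, was the member above 0, with a difference of 0.04 ± 0.51.

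Genes of mitosis were lower in both senescent libraries. All 47 had a difference below 0, from −2.27 to −0.23, with a median of −1.22. In all 47 both senescent libraries lay below both young libraries (26.7% of all tested genes). None passed the test, and 12 had an unadjusted p under 0.05 in that direction (3.41% of all tested genes). Without senescent 1 the median was −0.74. TOP2A, the topoisomerase that untangles chromosomes, gave 120.8 and 136.5 CPM in young cells against 44.14 and 64.86 CPM in senescent cells (−1.24 ± 0.60, adjusted p = 0.675). ANLN, a scaffold of the contractile ring, gave 130.2 and 128.2 CPM against 31.65 and 80.91 CPM (−1.19 ± 0.59). MKI67, the Ki-67 marker of dividing cells, gave 44.31 and 42.15 CPM against 7.50 and 21.45 CPM (−1.56 ± 0.65, adjusted p = 0.601). BUB3, a checkpoint protein with other roles outside mitosis, gave 112 and 121.1 CPM against 85.99 and 106.2 CPM (−0.28 ± 0.23). Fewer dividing cells and less mRNA per dividing cell cannot be told apart in bulk libraries.

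Many promoters of mitosis genes hold a cell cycle homology region, an element with the core TTTGAA that the DREAM complex binds to hold these genes silent outside G2 and mitosis. The 120 bases before the start site are printed for 4 members of the list that hold it, picked for the match, from RefSeq promoters (GRCh38.p14), with the core in capitals.
CCNB2, chr15:59105026-59105145, plus strand: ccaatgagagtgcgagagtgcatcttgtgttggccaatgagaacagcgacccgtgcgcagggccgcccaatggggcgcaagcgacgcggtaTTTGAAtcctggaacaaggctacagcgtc
CDC20, chr1:43358861-43358980, plus strand: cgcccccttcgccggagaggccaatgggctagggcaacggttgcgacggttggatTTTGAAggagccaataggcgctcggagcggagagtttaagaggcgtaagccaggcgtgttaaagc
PLK1, chr16:23678769-23678888, plus strand: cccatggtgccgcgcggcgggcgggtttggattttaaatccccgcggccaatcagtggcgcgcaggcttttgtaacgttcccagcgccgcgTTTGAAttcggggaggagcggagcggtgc
KIF23, chr15:69414229-69414348, plus strand: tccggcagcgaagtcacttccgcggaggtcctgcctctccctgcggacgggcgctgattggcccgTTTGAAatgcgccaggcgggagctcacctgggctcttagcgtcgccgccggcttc
In the 250 bases before the start, searched on both strands, TTTGAA was found in 24 of the 48 promoter entries of mitosis genes (50%), in 2 of the 54 entries of DNA replication genes (3.7%) and in 13.3% of all 35116 promoters. CCAAT, the box bound by NF-Y, was found in 68.8% of the mitosis entries, 55.6% of the replication entries and 32% of all promoters. A match is a description of letters, not a binding site.

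The 4 genes whose promoters are printed were lower in both senescent libraries, and again lowest in senescent 1. CCNB2, a cyclin of mitotic entry, gave 23.92 and 25.73 CPM in young cells against 2.71 and 17.23 CPM in senescent cells (−1.29 ± 0.77). CDC20, the activator of the anaphase-promoting complex, gave 39.3 and 45.84 CPM against 9.99 and 21.45 CPM (−1.43 ± 0.69). PLK1, a mitotic kinase, gave 34.97 and 35.54 CPM against 12.28 and 21.11 CPM (−1.07 ± 0.69). KIF23, a kinesin of the central spindle, gave 52.4 and 50.59 CPM against 13.33 and 30.57 CPM (−1.22 ± 0.44). The adjusted p of these genes was 0.504 to 0.747.

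The plot of each senescent library against the young mean shows how much of the proliferation signal sits in senescent 1. Over 9544 genes of at least 5 CPM in young cells, the log2 difference from the young mean had an SD of 0.686 in senescent 1 and 0.399 in senescent 2. The values of both libraries correlated across genes (r = 0.465), which is a description only, since both were set against the same young mean.

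**Figure D3:**
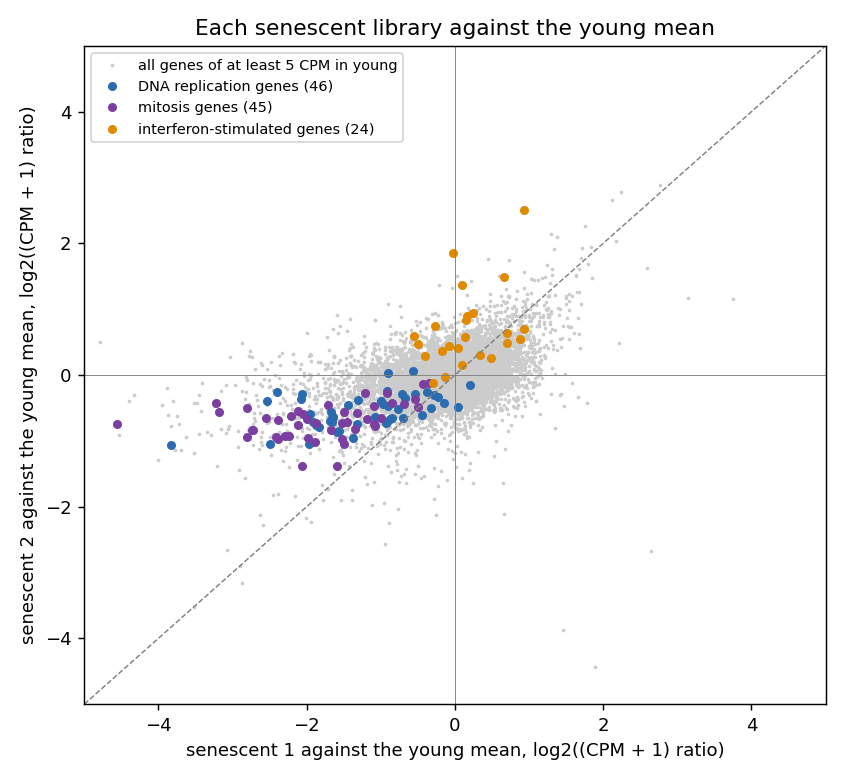
Difference of senescent 1 (x axis) and of senescent 2 (y axis) from the mean of the young libraries, as log2 of the ratio of CPM + 1. Each point is a gene of at least 5 CPM in young cells, and the dashed line marks equal values. Most mitosis and DNA replication genes lie below 0 on both axes and lower in senescent 1, and many interferon-stimulated genes are higher in senescent 2.

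Most genes of the nuclear lamina and of chromatin proteins of the HMG class had lower values in senescent cells. Of 13 genes 11 had a difference below 0, the median was −0.43, and none passed. At an unadjusted p under 0.05, 6 were below 0 (3.41% of all tested genes) and 1 above 0 (4.43%). LMNB1, lamin B1 of the nuclear envelope, gave 50.12 and 51.08 CPM in young cells against 9.16 and 25.34 CPM in senescent cells (−1.54 ± 0.51, adjusted p = 0.447). HMGB2, a chromatin protein linked to proliferation, gave 82.59 and 83.61 CPM against 27.9 and 37.67 CPM (−1.34 ± 0.42, adjusted p = 0.427). HMGB1, its abundant relative, gave 389.6 and 400.5 CPM against 248 and 241 CPM (−0.69 ± 0.25). LMNA, which codes for lamins A and C, gave 1195 and 1222 CPM against 1156 and 1153 CPM (−0.07 ± 0.18). HMGA2, an architectural chromatin protein, went the other way with 93.3 and 106.3 CPM against 179.7 and 243.7 CPM (1.09 ± 0.21, adjusted p = 0.18). None of these 5 genes had overlapping groups, where 24.8% of all tested genes lay apart upward and 26.7% downward.

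Regulators of the G1 phase had values on both sides of 0. The list holds CDK inhibitors and D-type cyclins, and also CDK4, CDK6, RB1, RBL1 and RBL2. Among its 12 measured genes, 6 were above 0 and 6 below 0, with a median of 0.02. CCND1, cyclin D1, gave 967.7 and 964 CPM in young cells against 1984 and 1763 CPM in senescent cells (0.96 ± 0.17, adjusted p = 0.171). CCND2, cyclin D2, was scarce in young cells, with 4.21 and 4.27 CPM, and gave 43.52 and 30.57 CPM in senescent cells (3.12 ± 0.41, adjusted p = 0.0682). CDKN1A, the inhibitor p21, gave 287.2 and 266.1 CPM against 374.6 and 494.2 CPM (0.65 ± 0.29, adjusted p = 0.637). CDKN2A, the locus of p16 and ARF, gave 18.68 and 16.02 CPM against 21.45 and 18.41 CPM (0.20 ± 0.35), and its groups overlapped. CDKN2B, the inhibitor p15, did not pass the filter on low counts. Of 28 targets of p53, 21 had a difference above 0, with a median of 0.33 (0.27 in senescent 1 and 0.31 in senescent 2), and in 18 both senescent libraries lay above both young (24.8% of all tested genes). TNFRSF10B, a death receptor and p53 target, gave 71.43 and 72.64 CPM against 134.9 and 118.7 CPM (0.82 ± 0.21, adjusted p = 0.305). MDM2, the ligase that degrades p53, gave 133.7 and 133.4 CPM against 169.3 and 179.2 CPM (0.38 ± 0.29).

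Since no gene passed, the genes of lowest unadjusted p, among those that reach a mean of 10 CPM in either group, were taken as leads, 10 in each direction, and their selection by p makes these values a description. Their adjusted p was 0.0682 to 0.171 in edgeR. All 20 passed in DESeq2 (8.06e-09 to 0.0189), and 0 passed in limma on log2(TPM + 1). In edgeR 20 passed with no filter on low counts, 17 with the replicate block (9 higher, 8 lower) and 9 with only the 4 resting libraries. All 20 kept their direction in the 16 alternatives run. These alternatives refit the libraries that picked the leads, so passing or keeping direction there is no separate support. None passed in edgeR without any 1 of the 4 resting libraries, where the lowest adjusted p was 0.364 without young 1, 0.592 without young 2, 0.314 without senescent 1 and 0.108 without senescent 2.

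Among the leads with higher values, INMT, a methyltransferase of small amines, gave 9.91 and 8.35 CPM in young cells against 44.56 and 40.71 CPM in senescent cells (2.22 ± 0.26, adjusted p = 0.0682). WFDC1, a secreted protease inhibitor domain protein, gave 14.7 and 13.21 CPM against 51.01 and 46.96 CPM (1.81 ± 0.21). TRPV2, a cation channel, gave 34.29 and 37.48 CPM against 116.4 and 111.5 CPM (1.67 ± 0.22). In these 3 genes the senescent libraries lay close together, which the choice by lowest p favours. CDCP1, a transmembrane substrate of Src kinases, gave 9.46 and 9.81 CPM against 33.52 and 35.47 CPM (1.84 ± 0.26). GFRA1, a receptor subunit for the growth factor GDNF, gave 15.15 and 16.12 CPM against 40.39 and 49.66 CPM (1.53 ± 0.24). ADAMTS19, a secreted metalloproteinase, gave 2.73 and 3.21 CPM against 33.31 and 49.83 CPM (3.80 ± 0.59, adjusted p = 0.109). SEMA6A, a transmembrane semaphorin, gave 6.15 and 4.18 CPM against 19.16 and 22.46 CPM (2.01 ± 0.34). PCDHGA4 gave 8.20 and 8.16 CPM against 31.65 and 34.46 CPM (2.01 ± 0.33). It is a gamma protocadherin, whose genes share their last exons, so reads can be assigned to the wrong member. Of 20 measured gamma protocadherins 9 were above 0, with a median of −0.19.

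**Figure D4:**
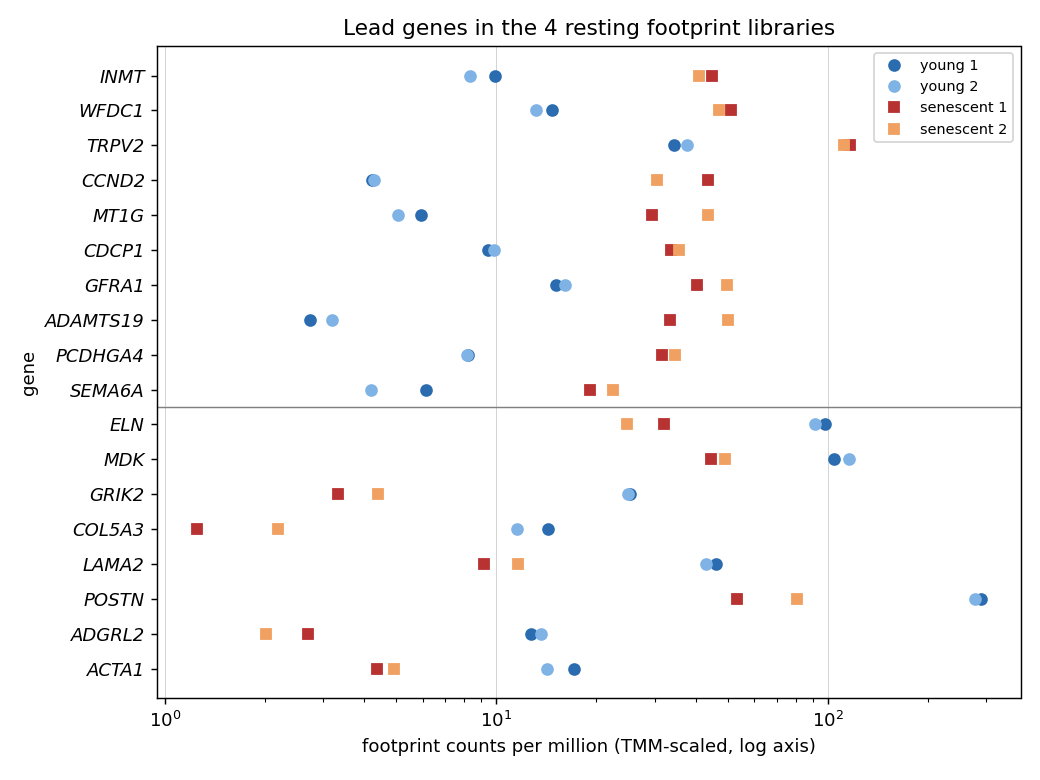
Footprint level (x axis, CPM, log scale) of the lead genes in the 4 resting libraries, with the higher genes above the line and the lower genes below it, leaving out TICAM2, which had 0 counts in both senescent libraries, and 1 gene that is not reported here. Circles are young and squares senescent libraries. In each gene drawn the groups are apart, as the choice by lowest p favours.

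Among the leads with lower values, ELN, elastin, the core of elastic fibres, gave 98.08 and 91.38 CPM in young cells against 32.06 and 24.83 CPM in senescent cells (−1.74 ± 0.23, adjusted p = 0.0682). ELN was also the gene called between the heat-shocked states (1 of 11288, 0.00886%, with a difference of −2.36). In 6 of the 8 fits that left out 1 footprint library no gene was called under heat, and without young heat 1 the 1 gene called was a higher one. MDK, the growth factor midkine, gave 104.3 and 115.4 CPM against 44.35 and 48.98 CPM (−1.23 ± 0.19). GRIK2, a glutamate receptor subunit, gave 25.29 and 24.96 CPM against 3.33 and 4.39 CPM (−2.69 ± 0.43). ADGRL2, an adhesion receptor of the latrophilin family, gave 12.76 and 13.6 CPM against 2.71 and 2.03 CPM (−2.48 ± 0.45). ACTA1, skeletal muscle actin, gave 17.09 and 14.18 CPM against 4.37 and 4.90 CPM (−1.75 ± 0.32), and it is nearly identical in sequence to the other actins. TICAM2, an adaptor of Toll-like receptor 4, had 81 and 120 counts in young cells and 0 in both senescent libraries. Against a floor of 3 counts per library this is at least 18.5-fold lower, for the reads assigned to TICAM2 alone. Its reads overlap those of the readthrough gene TMED7-TICAM2, which gave 9.91 and 5.53 CPM against 117 and 18.41 CPM, so the split between these genes is uncertain. Their sum was 19.14 and 17.19 CPM in young and 117 and 18.41 CPM in senescent cells.

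Matrix genes had differences in both directions. Of 22 collagens 12 were above 0 and 10 below, with a median of 0.07. At an unadjusted p under 0.05, 5 were below 0 (3.41% of all tested genes) and none above 0 (4.43%). COL5A3, a minor chain of type V collagen, gave 14.35 and 11.56 CPM in young cells against 1.25 and 2.20 CPM in senescent cells (−2.88 ± 0.47, adjusted p = 0.131). COL15A1, a collagen of the basement membrane zone, gave 51.83 and 43.02 CPM against 19.78 and 21.96 CPM (−1.18 ± 0.22). COL12A1, which binds to collagen fibrils, gave 1859 and 1616 CPM against 1256 and 1148 CPM (−0.53 ± 0.18). The fibril-forming COL1A2 gave 5993 and 5591 CPM against 7686 and 7317 CPM (0.37 ± 0.20), and COL1A1 did not differ beyond the spread (0.04 ± 0.21).

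Among the 50 other matrix genes 31 were above 0 and 19 below, with a median of 0.15. POSTN, periostin, gave 290 and 277.2 CPM against 53.3 and 80.74 CPM (−2.08 ± 0.38, adjusted p = 0.171). LAMA2, a laminin chain, gave 46.02 and 42.83 CPM against 9.16 and 11.65 CPM (−2.09 ± 0.38). MFAP2, a microfibril protein that lies with elastin, gave 40.21 and 34.96 CPM against 6.04 and 9.97 CPM (−2.22 ± 0.49, adjusted p = 0.218). LOX, lysyl oxidase, gave 357 and 335.4 CPM against 581.5 and 597.3 CPM (0.77 ± 0.19), and PLOD2, a lysyl hydroxylase, gave 188.3 and 195 CPM against 349 and 344.7 CPM (0.86 ± 0.25). FN1, fibronectin, gave 5082 and 5074 CPM against 7150 and 5083 CPM (0.27 ± 0.23), with senescent 2 at the level of young cells. EGFLAM, a matrix protein, had 13 and 10 counts in young cells and 0 and 2 in senescent cells, too few for a fold.

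Metalloproteinases and their inhibitors gave 15 of 21 values above 0 with a median of 0.14. TIMP3, an inhibitor bound to the matrix, gave 566.9 and 553.6 CPM against 755.4 and 762.6 CPM (0.44 ± 0.16), and ADAM9, a sheddase, gave 583.6 and 581.4 CPM against 981.1 and 932 CPM (0.72 ± 0.27). MMP2, gelatinase A, gave 1201 and 1176 CPM against 998.8 and 1248 CPM and its groups overlapped. Of 29 contractile genes of myofibroblasts 17 were above 0, with a median of 0.05.

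The secretory phenotype list holds cytokines, chemokines, proteases and growth factors that senescent cells are known to release. Of 33 measured genes 23 were above 0, with a median of 0.32 (0.25 in senescent 1 and 0.41 in senescent 2), and none passed. At an unadjusted p under 0.05, 9 were above 0 (4.43% of all tested genes) and 2 below (3.41%). IL1A, IL1B and CXCL1 did not pass the filter on low counts. IL6 gave 1.94 and 3.40 CPM in young cells against 3.12 and 3.38 CPM in senescent cells (0.28 ± 0.57). PLAT, tissue plasminogen activator, gave 174.6 and 170.6 CPM against 390.4 and 480.2 CPM (1.33 ± 0.29, adjusted p = 0.218). SERPINB2, an inhibitor of plasminogen activators, gave 113 and 138.8 CPM against 330 and 540.3 CPM (1.79 ± 0.44). INHBA, the chain of activin A, was lower with 173 and 177.1 CPM against 108.5 and 79.72 CPM (−0.90 ± 0.20), and the chemokine CXCL12 gave 24.26 and 22.72 CPM against 6.46 and 6.42 CPM (−1.86 ± 0.51). STC2, a secreted glycoprotein and ATF4 target, gave 210.5 and 212.1 CPM against 314 and 445.1 CPM (0.84 ± 0.32).

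The list of insulin-like growth factor binding proteins also holds IGF2 and the receptors IGF1R and IGF2R. It had the highest median of the lists with more than 1 measured gene, at 0.75, with 7 of 9 above 0. Between the heat-shocked states its median was 0.01. IGFBP7 gave 827.4 and 835.3 CPM in young cells against 1636 and 1862 CPM in senescent cells (1.07 ± 0.21, adjusted p = 0.181). IGFBP5 gave 1187 and 1141 CPM against 1886 and 2036 CPM (0.75 ± 0.27). Both are secreted, and in both the senescent libraries lay above the young ones (24.8% of all tested genes). IGFBP4 gave 367.4 and 362.2 CPM against 294.2 and 494.9 CPM, with the young libraries between the senescent ones.

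Interferon-stimulated genes were higher mainly in senescent 2. Of 30 measured genes 27 were above 0, with a median of 0.48, and the median per library was 0.11 in senescent 1 and 0.63 in senescent 2. None passed, and 8 had an unadjusted p under 0.05 above 0 (4.43% of all tested genes). IFI6 gave 7.18 and 8.64 CPM in young cells against 16.03 and 49.66 CPM in senescent cells (2.06 ± 0.65, adjusted p = 0.427). ISG15, a ubiquitin-like modifier, gave 22.78 and 25.54 CPM against 38.73 and 69.42 CPM (1.16 ± 0.35). MX1, a GTPase against viruses, had 0 CPM in senescent 1 and 6.25 CPM in senescent 2, against 0.456 and 0.194 CPM in young cells. HLA-C, which presents peptides, was not lower in senescent 1 than in senescent 2. It gave 415.1 and 425.3 CPM against 805.6 and 683.4 CPM (0.82 ± 0.27), and HLA genes share sequence.

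Lysosomal genes had values slightly above young cells in both senescent libraries. Of 37 genes 30 were above 0, with a median of 0.22 (0.26 in senescent 1 and 0.27 in senescent 2). In 22 both senescent libraries lay above both young (24.8% of all tested genes). PSAP, the precursor of saposins, gave 865.9 and 867.7 CPM against 1486 and 1217 CPM (0.64 ± 0.19, adjusted p = 0.389). CTSD, the protease cathepsin D, gave 326.4 and 321.5 CPM against 476.6 and 486.5 CPM (0.57 ± 0.23). GLB1, the source of senescence-associated beta-galactosidase activity, gave 106.3 and 105.5 CPM against 114.3 and 140.5 CPM (0.27 ± 0.23, adjusted p = 0.8). Of 27 autophagy genes 18 were above 0, with a median of 0.12. SQSTM1, the cargo receptor p62, gave 215.9 and 219.4 CPM against 248.2 and 320.4 CPM (0.39 ± 0.27).

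Metallothioneins are small proteins that bind zinc and copper, and the 4 named here had higher values in both senescent libraries. MT1G gave 5.92 and 5.05 CPM in young cells against 29.57 and 43.58 CPM in senescent cells (2.74 ± 0.36, adjusted p = 0.0682). MT1X gave 2.85 and 3.30 CPM against 8.33 and 16.22 CPM (1.99 ± 0.42, adjusted p = 0.197). MT1E gave 63.57 and 56.81 CPM against 125.1 and 127.9 CPM (1.07 ± 0.40). MT2A, the most abundant, gave 844.4 and 807.9 CPM against 1278 and 1898 CPM (0.94 ± 0.42, adjusted p = 0.634). None of the 4 had overlapping groups, where 24.8% of all tested genes lay apart in this direction. MT1G was picked by its p value, and MT1X and MT1E after their values were seen. The comparison with that share is thus a description of chosen genes. MT1 genes are close copies whose reads can be split. In RNA-seq MT1G was near 0, with 0.166 and 0.133 CPM in young cells against 0.488 and 0.181 CPM in senescent cells. Metallothionein genes are switched on by the zinc sensor MTF1 through metal response elements with the core TGCNCNC. The 120 bases before the start are shown for the 2 of these genes found in the RefSeq promoter table (GRCh38.p14), with each core, on either strand, in capitals.
MT2A, chr16:56608464-56608583, plus strand: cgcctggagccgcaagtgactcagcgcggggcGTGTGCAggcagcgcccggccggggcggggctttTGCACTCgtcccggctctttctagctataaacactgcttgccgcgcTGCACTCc
MT1X, chr16:56682350-56682469, plus strand: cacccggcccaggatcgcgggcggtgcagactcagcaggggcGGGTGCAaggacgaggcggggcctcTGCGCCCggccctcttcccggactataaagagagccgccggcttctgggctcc
MT2A shows 3 such cores and MT1X 2 in these windows. The core is short and frequent: 49.1% of all promoters hold at least 1 in the 250 bases before the start, and 5.85% hold 3 or more, as did all 4 metallothionein promoters in the table.

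Of 32 oxidative stress genes, the metallothioneins included, 25 were above 0, with a median of 0.28. PRDX6, a peroxiredoxin, gave 655.4 and 647.4 CPM against 1015 and 933.9 CPM (0.58 ± 0.17, adjusted p = 0.365). PRDX1, the most abundant peroxiredoxin, gave 1178 and 1198 CPM against 1314 and 1326 CPM (0.15 ± 0.21).

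All 21 measured glycolysis genes had a difference above 0, with a median of 0.34 (0.37 in senescent 1 and 0.24 in senescent 2). In 18 both senescent libraries lay above both young libraries (24.8% of all tested genes). None passed, and 6 had an unadjusted p under 0.05 in that direction (4.43% of all tested genes). SLC2A1, the glucose transporter GLUT1, gave 221.7 and 216.8 CPM in young cells against 506.4 and 383.9 CPM in senescent cells (1.02 ± 0.23, adjusted p = 0.233). HK2, hexokinase 2, gave 33.38 and 30.88 CPM against 97.65 and 75 CPM (1.43 ± 0.33, adjusted p = 0.235). LDHA, lactate dehydrogenase A, gave 1421 and 1473 CPM against 2221 and 1708 CPM (0.44 ± 0.24). GAPDH gave 6507 and 6163 CPM against 6838 and 7629 CPM (0.19 ± 0.19). The 56 genes of oxidative phosphorylation had a median of −0.05, with 24 above 0, and cholesterol synthesis a median of −0.16, with 10 of 28 above 0.

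Chaperones of the cytosol had differences on both sides of 0 at rest. Of 47 measured genes 24 were above 0 and 23 below, with a median of 0.01. HSPA8, the constitutive HSP70, gave 2638 and 2604 CPM in young cells against 4378 and 3192 CPM in senescent cells (0.53 ± 0.23, adjusted p = 0.624). HSP90AA1, the inducible cytosolic HSP90, gave 1734 and 1796 CPM against 2661 and 1636 CPM (0.28 ± 0.31). HSPB1, a small heat shock protein, gave 880.5 and 889.2 CPM against 887.4 and 1124 CPM (0.18 ± 0.36). HSPA1A, the inducible HSP70 with a near-identical copy, gave 48.07 and 93.23 CPM against 156 and 75.33 CPM, and its groups overlapped. It had 422 and 960 counts in young cells against 749 and 446 in senescent cells. The copy, HSPA1B, had 876 and 501 counts against 0 and 470. Reads can be split between the copies, so the values of HSPA1A alone are uncertain. The chaperonin TRiC with prefoldin had a median of 0.01, at 0.13 in senescent 1 and −0.14 in senescent 2. Mitochondrial chaperones had a median of 0.20, with 10 of 13 above 0, at 0.33 in senescent 1 and 0.08 in senescent 2.

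In the ER, 26 of 37 chaperone and unfolded protein response genes were above 0 and 10 below, with a median of 0.18. In 19 both senescent libraries lay above both young (24.8% of all tested genes). HSPA5, the ER chaperone BiP, gave 1758 and 1717 CPM in young cells against 2737 and 2585 CPM in senescent cells (0.62 ± 0.20, adjusted p = 0.427). HSP90B1, the ER form of HSP90, gave 2250 and 2149 CPM against 3464 and 2891 CPM (0.53 ± 0.31). CALR, calreticulin, which binds newly made glycoproteins, gave 2770 and 2819 CPM against 3174 and 3284 CPM (0.21 ± 0.24). WFS1, an ER membrane protein, gave 61.97 and 60.79 CPM against 152.2 and 118.7 CPM (1.14 ± 0.21, adjusted p = 0.171). These 4 genes had no overlap between groups. Targets of PERK and ATF4, the branch that responds to phosphorylated eIF2α, had a median of 0.02, at −0.10 in senescent 1 and 0.24 in senescent 2. The 37 proteasome subunits had a median of −0.10, with 11 above 0.

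The translation machinery itself was close to level in footprints. The 78 ribosomal protein genes had a median of −0.02, with 35 above 0, and RPL4, of the large subunit, gave 1507 and 1513 CPM in young cells against 1404 and 1304 CPM in senescent cells (−0.16 ± 0.20). The 48 translation factors had a median of 0.05, at 0.21 in senescent 1 and −0.07 in senescent 2. EEF1A1, the factor that delivers tRNAs to the ribosome, gave 13720 and 13700 CPM against 14130 and 11710 CPM. EIF4G1, the scaffold of cap-dependent initiation, gave 320.2 and 318.9 CPM against 461 and 420.9 CPM (0.46 ± 0.18, adjusted p = 0.562). Aminoacyl-tRNA synthetases had a median of 0.17, with 18 of 22 above 0, at 0.27 in senescent 1 and 0.04 in senescent 2. Nucleolar factors had a median of 0.16, at 0.28 in senescent 1 and −0.04 in senescent 2. TMM scaling sets the bulk of genes to 0, so a change in translation shared by all genes is not seen here.

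The RNA-seq libraries of the same states show how far footprint differences followed transcript levels. Across 11166 genes the footprint and RNA differences correlated with r = 0.547, a description over genes that are not independent replicates. CCND2 had an RNA difference of 3.07 beside 3.12 in footprints, INMT 2.17 beside 2.22, ADAMTS19 2.99 beside 3.80, ELN −2.20 beside −1.74 and POSTN −1.81 beside −2.08. RNA-seq called 5 of 13177 genes (0.0379%), among them CCND2 and ADAMTS19, and none of these calls held when any 1 of the 8 RNA libraries was left out. Mitosis genes had a median of −0.76 in RNA (46 of 47 below 0) beside −1.22 in footprints, and glycolysis genes 0.20 beside 0.34.

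Histones had opposite signs in RNA and footprints. In RNA-seq 19 of the 58 genes passed the filter, and 18 of these had a difference above 0 (49.6% of all genes tested in RNA), with a median of 1.51, while their footprint differences were all below 0. The RNA counts behind this were low, with 2958 and 1679 counts over all 58 genes in young cells and 5471 and 4355 in senescent cells, beside 74454, 88640, 10160 and 32331 footprint counts. Translational efficiency, the footprint difference minus the RNA difference, had a median of −2.32 over the 19 genes, with 18 below 0 and 13 at an unadjusted p under 0.05, where 0.510% of all 11166 genes were below 0 at that p. None passed, the lowest adjusted p being 0.423. Since replication-dependent histone mRNAs lack the poly(A) tail, an RNA library selected for poly(A) would hold mainly unusual tailed forms. The labels name the TruSeq RNA kit for these libraries and do not say how RNA was selected, and the part of this in the efficiency values was not tested. In efficiency 1 of 11166 genes was called (0.00896%), BOLA2B, which has an identical count column to its copy BOLA2 in the footprints and a near-identical sequence, so this call is uncertain.

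**Figure D5:**
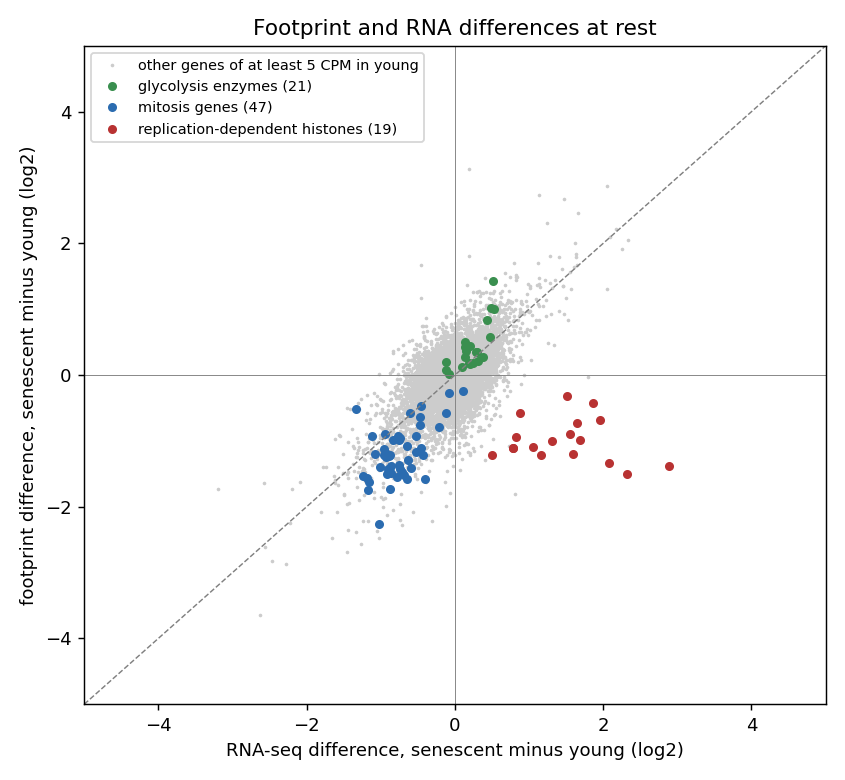
Difference between senescent and young cells in RNA-seq (x axis, log2) and in footprints (y axis, log2), for genes of at least 5 CPM in young footprints and all members of 3 lists. The dashed line marks equal values. Mitosis genes lie below 0 on both axes except 1 in RNA, glycolysis genes lie above 0 in footprints, and 18 of 19 histones lie right of 0 in RNA and below 0 in footprints.

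Whether the footprint difference at rest departed from that after heat shock was tested as the difference of the contrasts. By edgeR 0 of 11288 genes were called, against 554 at an unadjusted p under 0.05 (4.91%). With 2 libraries per group, the lack of calls does not show that the resting difference recurred. Mitosis genes had a median of 0.21 between the heat-shocked states, beside −1.22 at rest. Their level in the heat-shocked libraries differed more by replicate number than by state, at −0.41 and 0.41 in young replicates 1 and 2 and −0.89 and 0.91 in senescent replicates 1 and 2, relative to the young heat-shocked mean. Glycolysis genes had 0.28 under heat beside 0.34 at rest, interferon-stimulated genes 0.57 beside 0.48 and lysosomal genes 0.21 beside 0.22. Collagens had −0.66 under heat beside 0.07 at rest. These medians are given side by side, with no test of the difference between them. MT1G gave 2.77 under heat beside 2.74 at rest, and CCND2 gave 1.97 beside 3.12.

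Most listed markers of other cell types did not pass the filter on low counts, but some keratins, TEK and CD68 were well above 0 in all 4 libraries. Of 11 epithelial markers 4 passed the filter on low counts. KRT19, a keratin of simple epithelia, gave 55.48 and 57.2 CPM in young cells against 88.7 and 74.15 CPM in senescent cells (0.53 ± 0.20, adjusted p = 0.563). KRT18, another such keratin, gave 40.9 and 48.46 CPM against 66.63 and 68.24 CPM (0.59 ± 0.21, adjusted p = 0.494). CDH1, which defines epithelium, had 0 counts in all 4 libraries, and EPCAM had 7, 7, 0 and 3 counts. The summed epithelial level was 116.4 and 130.2 CPM in young and 170.9 and 167.9 CPM in senescent cells. TEK, an angiopoietin receptor, was the endothelial marker that passed of 8, with 36.34 and 26.22 CPM against 68.09 and 66.38 CPM (1.10 ± 0.23, adjusted p = 0.197), while CDH5 had 0 counts in all 4 libraries. The leukocyte marker PTPRC had 2 counts in young 1 and 0 in the other 3 libraries, and the leukocyte sum was 149.9 and 138.9 CPM in young against 103.2 and 150.3 CPM in senescent cells, mostly from CD68, which fibroblasts also express. Of the fibroblast markers 9 of 13 were above 0, with a median of 0.16. Among them PDGFRB, a growth factor receptor, gave 203.2 and 192.8 CPM against 132.8 and 136.3 CPM (−0.56 ± 0.18).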

How the data were processed

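The authors deposited expected counts and TPM per gene, in tables whose names give RSEM as the source. Per the submitters' processing notes, the tools were Bowtie2, STAR and RSEM and the build was hg19. The sources used here do not give their settings, the annotation or how ribosomal RNA was removed. Per the labels' protocols, lysates were digested with RNase If and ribosomes pelleted through sucrose.

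From these files, the expected counts of all 8 footprint libraries, rounded to whole numbers, passed filterByExpr and TMM scaling. The test was the quasi-likelihood F test of edgeR 4.0.16 (R 4.3.3), with 1 mean per group and 4 residual degrees of freedom. Of 19201 genes listed, 4549 had 0 counts in all libraries and 11288 were tested. P values were adjusted by Benjamini-Hochberg over all genes of a comparison, with a threshold of 0.05. RNA-seq was fitted likewise, and efficiency in 1 fit of 16 libraries. TPM were used in limma 3.58.1 (pseudocount 1, keeping genes that reach 1 TPM in 2 or more libraries). The SE is the difference over the square root of F. All 32 columns of values were used. Reads carry no molecular identifiers, so floors of 3 counts cover counting error only. Recovery of known changes was tested on simulated data (11165 genes).

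Genes are named by a rule: genes that pass, or else the 10 lowest unadjusted p values in each direction with a mean of at least 10 CPM in either group; the 3 most abundant members of each list, as none was called; and a panel of senescence and chaperone genes. Not all of these are printed, and some items are not reported here. The members and lists were chosen with earlier results of these data known. Genes named beyond the rule were chosen after their values were seen: CCNE1, CCNB2, CDC20, PLK1, KIF23, HMGA2, HIST1H2AE, HIST1H2BL, HIST1H3H, the 5 histones outside the list, COL15A1, COL12A1, MFAP2, LOX, PLOD2, TIMP3, PLAT, SERPINB2, INHBA, CXCL12, IFI6, ISG15, MX1, CTSD, MT1X, MT1E, SLC2A1, HK2, HSPA1B, WFS1, EIF4G1, PDGFRB, TMED7-TICAM2 and BOLA2B. Sequences came from GENCODE 29 and RefSeq, by gene symbol, on another build than the counts. Alternatives were other scalings, no filter, the replicate block, DESeq2 1.42.0, limma, only the 4 resting libraries, the young libraries as 1 sample, and each library left out. Those for RNA-seq, efficiency and heat shock were chosen after seeing the data.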

Additional observations from a re-analysis of the deposited data

How the results depend on the processing

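The number of genes called at rest in footprints was 0 with relative log expression scaling, library size scaling, limma on log2(TPM + 1) and the young libraries counted as 1 sample. It was 118 with no filter on low counts (76 higher, 42 lower), 116 with DESeq2 (81 and 35), 16 with only the 4 resting libraries (13 and 3), and 0 to 6 with 1 library left out. These 6 calls came without young heat 1 or young heat 2, and 4 came without senescent heat 1. With the replicate block it was 27 (17 and 10). Deviations of same-numbered libraries correlated at 0.25, 0.33 and 0.25 among the young heat, senescent control and senescent heat groups, and at −0.03 to −0.04 between each of these and the young control group. Since not every pair exceeded 0.1, the numbers were not taken to pair libraries. These correlations were computed in footprints only, and pairing of the RNA-seq libraries was not checked in this way.

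The other comparisons had alternatives chosen after seeing the data. Between the heat-shocked states, 1 call became 0 with relative log expression scaling, limma or the young resting libraries as 1 sample, 112 with no filter, 18 with the replicate block and 135 with DESeq2, and 0 to 498 with 1 library left out (498 without senescent heat 1). In RNA-seq, 5 calls became 0 with library size scaling or only the 4 resting libraries, 74 with no filter, 490 with the replicate block, 143 with DESeq2, 3 with limma and 0 with any 1 library left out. In efficiency, 1 call became 9 with no filter, 6 with the replicate block, 6 with DESeq2 and 1 to 22 with 1 library left out (22 without senescent 2). Efficiency was not run on TPM. The cause of these shifts was not tested.

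Some single genes changed sign. With library size scaling COL1A1 was at −0.029 and CCNE1 at −0.04, and with limma on TPM FN1 was at −0.31. With 1 library left out the differences ranged from −0.087 to 0.162 for COL1A1, −0.31 to 0.44 for IGFBP4, −0.25 to 0.07 for MMP2, −0.11 to 0.59 for HSP90AA1, −0.23 to 0.043 for EEF1A1, −0.75 to 0.014 for HIST1H2BK, −0.063 to 0.74 for IL6, −0.17 to 0.23 for CCNE1 and −4.15 to 4.22 for MX1, whose fitted values depend on the prior count since senescent 1 had 0 counts.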

Other observations

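A few genes outside the lists had large values at rest and are named after their values were seen. CST1, a secreted inhibitor of cysteine proteases, gave 1.37 and 0.583 CPM in young cells against 24.78 and 33.44 CPM in senescent cells (4.90 ± 0.92, adjusted p = 0.171), with 4.90 in RNA-seq and 5.43 between the heat-shocked states. DPP4, a cell surface peptidase, gave 35.09 and 35.44 CPM against 88.7 and 103.4 CPM (1.44 ± 0.27, adjusted p = 0.171). MASP1, a protease of the lectin pathway of complement, gave 24.72 and 23.69 CPM against 108.7 and 159.1 CPM (2.47 ± 0.49, adjusted p = 0.18). CD4, known as a receptor of T cells, gave 15.83 and 14.18 CPM against 53.3 and 75.67 CPM (2.10 ± 0.40, adjusted p = 0.171), with 2.09 in RNA-seq, in libraries where the T cell gene CD3E had 0 counts. None of these passed, and in each both senescent libraries lay above both young ones (24.8% of all tested genes).

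GC content of the coding sequence, known for 98.2% of the tested genes, had a Spearman correlation across 9384 genes of 0.131 with the footprint difference. It was 0.013 for senescent 1 and 0.268 for senescent 2, each against the young mean, and 0.474 for the RNA difference over 9312 genes. Genes are not independent replicates, and the part of GC content in the differences was not tested.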
